A study of Mus musculus with 6 samples.

Results

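The core spliceosome genes described here are the 57 protein-coding genes whose symbols begin with Prpf, Sf3a, Sf3b, Snrp, Snrnp, Lsm or U2af (for Prpf, Sf3a, Sf3b and Lsm followed by a number). They were taken from the deposited count table by these symbols, not by any measured value, and make up 57 of its 15349 protein-coding genes and 22030 genes in all. The choice of this set was still made with earlier results of these data known. One further symbol that matched, Snrpert, belongs to a pseudogene and was left out. The cells, labelled mBMSCs, are mesenchymal stem cells from mouse bone marrow, which can give rise to bone, cartilage and fat. RNA of 3 control libraries, titled siNC and with the genotype WT, was compared with that of 3 libraries with the genotype RIOK3 knockdown. The design text attributes the knockdown to lentivirus and stable lines, calls the cells knockout in another place and the controls blank controls, and the titles carry the prefix si, so which agent the libraries received is not settled by the labels. Clone number, animals, age, strain and time of harvest were not given in the sources used here.

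In every cell that splices, the spliceosome removes introns from pre-messenger RNA and is built anew on each intron from small nuclear ribonucleoproteins (snRNPs), each made of a small nuclear RNA and its proteins. The U1 snRNP pairs with the 5′ splice site, U2AF and the U2 snRNP recognise the 3′ end of the intron and its branch site, and the U4/U6.U5 tri-snRNP then joins to form the catalytic centre. U1, U2, U4 and U5 carry a ring of Sm proteins, U6 a ring of the related LSm proteins, and a minor spliceosome with U11 and U12 handles a rare class of introns.

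Each library held between 28327612 and 32569544 counts, and all 57 genes were among the 13067 genes with enough counts to be tested. Riok3, a kinase of the RIO family, lay at 143, 193 and 135 CPM (counts scaled to a common library size, with TMM factors) in control replicates 1, 2 and 3 and 32.1, 31.5 and 37.2 CPM in the knockdown, with a log2 fold change of −2.23. With the trend by GC content (described below) removed from each library, that value was −1.20, and −0.89 without control replicate 2 as well. Control replicate 2 stood apart, with Spearman correlations (log2 CPM) of 0.963 to control replicate 1 and 0.968 to control replicate 3, which reached 0.996 with each other. Of 20 stromal marker genes 17 were tested, with Itgb1 and Col1a2 the highest, while Thy1 and Eng lay between 0.547 and 3.79 CPM in every library and Lum was not listed. The summed level of that list was 910 to 1150 CPM in control and 1017 to 1037 CPM in the knockdown. This sum joins opposite changes: 8 of the 17 fell and 6 rose in the edgeR test described below. Of all tested genes 26.8% fell and 21.1% rose. The summed levels of 16 macrophage and other blood cell markers (46.5 to 75.6 CPM in control, 65.0 to 69.7 CPM in the knockdown) and of 6 endothelial markers (6.90 to 10.4 CPM and 14.4 to 16.0 CPM) were low. Most of the blood cell sum came from Cd68 (control mean 35.3 CPM, knockdown mean 48.3) and Cd34 (control mean 27.5 CPM, knockdown mean 18.6). Cd34 fell (log2 fold change −0.57, adjusted p = 0.036 by edgeR) and Cd68 did not pass. In every library both lay above the stromal markers Col3a1, Cxcl12, Nt5e, Eng and Thy1 and below Itgb1 and Col1a2. These sums therefore do not settle how pure the cultures were. Adgre1, Cd3e and Fcgr1 were not listed. The endothelial sum and that of 15 mitochondrially encoded RNAs, 14080 to 19902 CPM in control and 6595 to 7049 CPM in the knockdown, separated the groups, and their part in the results below was not tested. The labels do not say whether replicates are separate cultures, so p-values reflect only the spread between these libraries, and that spread may be technical. In RNA from whole cultures, fewer cells of a type and less RNA per cell cannot be told apart.

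Of the 57 core spliceosome genes, 17 fell and 11 rose in the knockdown libraries (quasi-likelihood test of edgeR at a p under 0.05 after Benjamini-Hochberg adjustment across the 13067 genes), and 29 did not pass. Among all tested genes 26.8% fell and 21.1% rose, so neither count lies far from the background. The deepest fall was that of Prpf39, a U1-associated factor, at 19.4-fold lower, and other deep falls were those of the kinase gene Prpf4b, the U11/U12 gene Snrnp48, Prpf38b and the branch-site gene Sf3b1. In all, 9 genes (15.8%) were at least 2-fold lower and none was 2-fold higher, against 20.1% and 7.52% of all tested genes. The largest rise, that of Sf3a2, was 1.73-fold. In CPM the groups did not overlap for 25 genes in the lower direction, against 31.3% of all tested genes, and for 16 in the higher direction, against 30.8%. The median log2 fold change of the 57 genes was −0.25, that of all tested genes 0.01.

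Scaling affected the split between falls and rises more than the deep falls. Upper-quartile factors gave 12 lower and 14 higher genes, against 22.5% and 28.9% of all tested genes, and library totals alone 13 and 17, against 21.5% and 32.8%. These factors shifted the median of all tested genes to 0.21 and 0.26. The median of the 57 genes was then −0.04 and 0.0037. Without control replicate 2, 25 genes fell and 19 rose, against 36.5% and 35.1% of all tested genes, and these include all 28 genes called with the 6 libraries, each in the same direction. Leaving out any other single library left between 3 and 5 rises, while 12.3% to 16.4% of all tested genes rose, and between 12 and 16 falls, while 20.1% to 23.2% of all fell. Fold changes of all genes followed the GC content of their transcripts, described further below. With that trend removed from each library, 7 genes passed as lower and 6 as higher, against 15.2% and 16.3% of all genes tested in that fit. Of the 28 calls, 6 then kept their direction, among them the falls of Prpf39, Prpf38b, Snrnp70 and Sf3b2 and the rise of Prpf19. The fall of Prpf38b was lost again when another transcript represented the gene. Values from this second fit are called GC-corrected below.

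**Figure D1:**
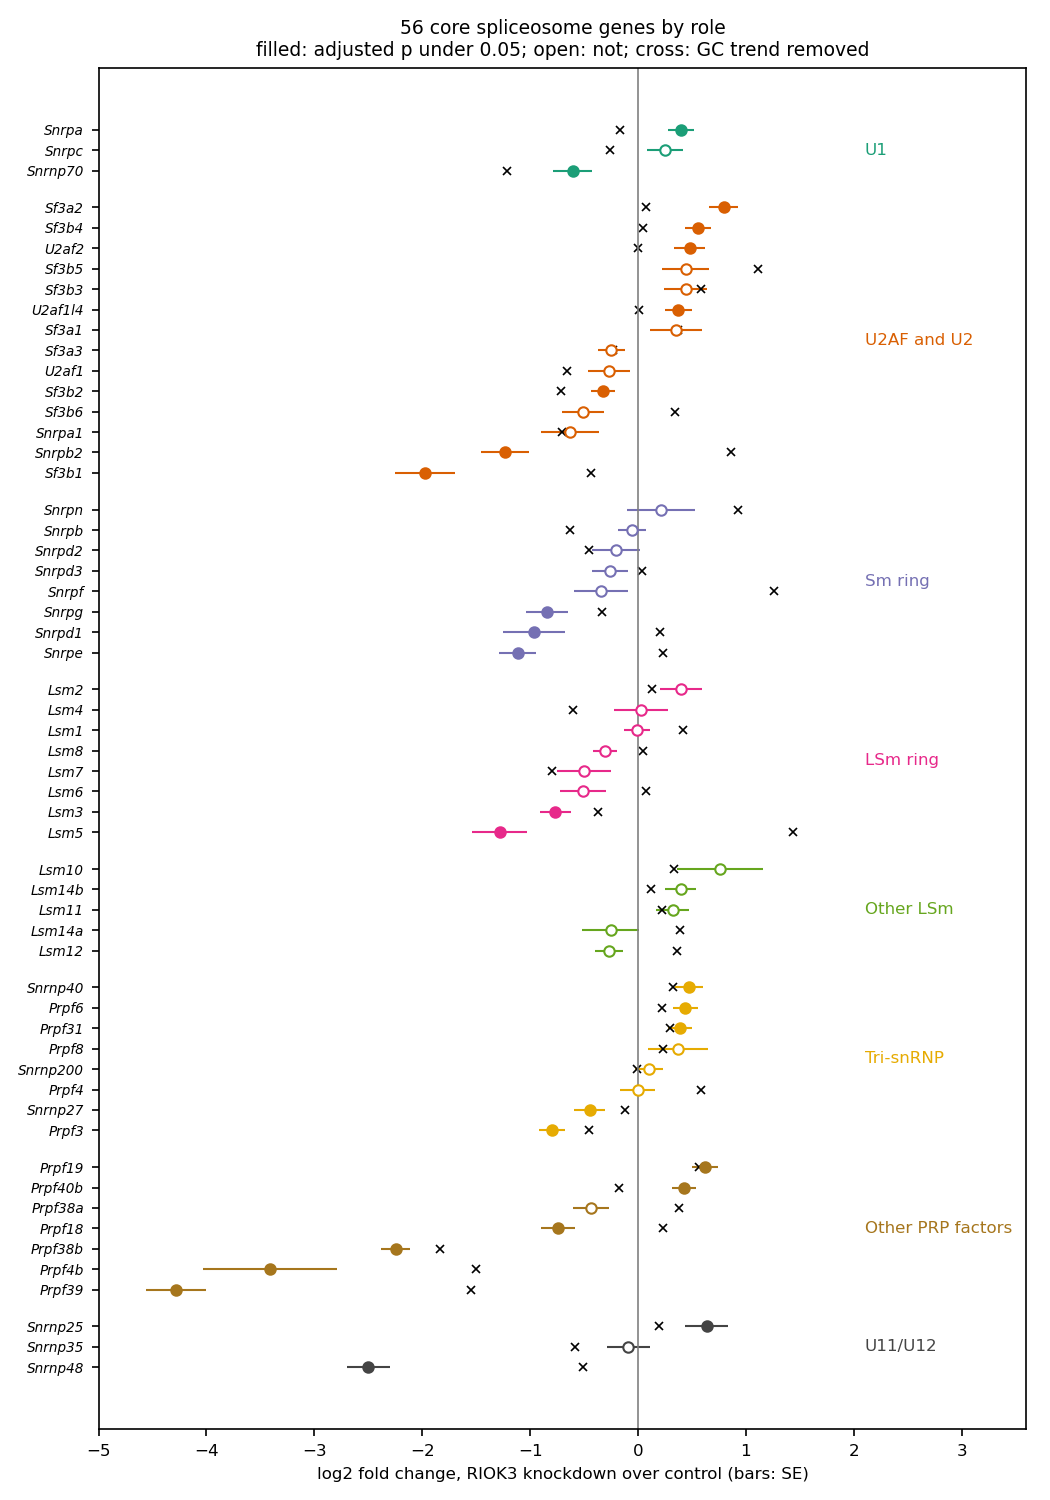
Log2 fold change of 56 of the genes, knockdown over control, with its SE as a bar, grouped by role. Filled circles passed the edgeR test at an adjusted p under 0.05, open circles did not, and crosses show the GC-corrected value. The lowest values shown, those of Prpf39, Prpf4b and Snrnp48, lie between −4.28 and −2.50, and no gene lies above 0.79.

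The 3 proteins particular to the U1 snRNP did not share a direction: Snrnp70 fell, Snrpa rose and Snrpc did not pass. Snrnp70 encodes the U1 protein that binds the first stem-loop of U1 RNA. It lay at 1735, 2514 and 1655 CPM in control replicates 1, 2 and 3 and at 1302, 1309 and 1266 CPM in the knockdown, so that every knockdown library was below every control (log2 fold change −0.61, SE 0.18, adjusted p = 0.0301). Its GC-corrected log2 fold change was −1.21 (adjusted p = 0.00392). Snrpa, which encodes the U1 protein that binds the second stem-loop, had 196, 229 and 206 CPM in control and 287, 276 and 268 CPM in the knockdown. The groups did not overlap (log2 fold change 0.40, SE 0.12, adjusted p = 0.028), but the GC-corrected value, −0.17, turned the direction and did not pass (adjusted p = 0.293). Snrpc had 52.1 ± 10.4 and 61.9 ± 4.14 CPM (SD, n = 3) in control and knockdown and a log2 fold change of 0.25. Upper-quartile factors or library totals alone ended the call of Snrnp70 at log2 fold changes of −0.44 and −0.35. It was also lost with FPKM and without any one knockdown library.

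Among the 14 genes of U2AF and the U2 snRNP, 3 fell (Sf3b1, Snrpb2 and Sf3b2) and 4 rose (Sf3a2, Sf3b4, U2af2 and U2af1l4). Over all tested genes the shares were 26.8% and 21.1%. Sf3b1 (ENSMUSG00000025982.14, chromosome 1), whose product clamps the branch site and is often mutated in blood cancers, had 203, 94.8 and 182 CPM in control and 38.2, 43.1 and 40.9 CPM in the knockdown. Control replicate 2 was the lowest control, yet still above every knockdown library (log2 fold change −1.97, SE 0.28, adjusted p = 0.00141). The GC-corrected value of Sf3b1 was −0.43, which did not pass (adjusted p = 0.127). Other genes of the SF3b complex had smaller differences, in both directions. Sf3b3, a scaffold of that complex, had 302, 187 and 301 CPM in control and 359, 352 and 362 CPM in the knockdown, all above the controls, with a log2 fold change of 0.44 (SE 0.20) that did not pass (adjusted p = 0.104). Without control replicate 2 it passed as higher, at 0.25 (adjusted p = 0.00124), and so did its GC-corrected value, 0.59 (adjusted p = 0.0311). Sf3b4 rose from 60.2 ± 2.69 to 88.5 ± 5.34 CPM and Sf3b2 fell from 2064 ± 35.7 to 1646 ± 19.9 CPM, while Sf3b5 and Sf3b6 had log2 fold changes of 0.44 and −0.51 that did not pass. The GC-corrected value of Sf3b4 was 0.05 (adjusted p = 0.755). The call of Sf3b2 (log2 fold change −0.33, adjusted p = 0.0467) lay near the threshold and was lost with upper-quartile factors, library totals alone, FPKM, no filter or the replicate block, and without any single library other than control replicate 2. Its GC-corrected value, −0.71, passed (adjusted p = 0.00598).

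The SF3a complex bridges SF3b and the rest of the U2 snRNP. Its gene Sf3a2 (chromosome 10) had 70.5, 59.3 and 75.7 CPM in control and 126, 116 and 115 CPM in the knockdown, without overlap (log2 fold change 0.79, SE 0.14, adjusted p = 0.003). Sf3a1 had 183, 96.5 and 176 CPM in control and 201, 191 and 187 CPM in the knockdown. The groups of Sf3a1 did not overlap, but the distance rested on the low control replicate 2 (log2 fold change 0.35, SE 0.24, adjusted p = 0.268, and 0.11 without that library). Sf3a3 did not pass either, at 215 ± 20.4 and 181 ± 10.9 CPM. Of the U2 RNA-binding proteins, Snrpb2 fell from 109 ± 34.0 CPM in control to 46.4 ± 2.42 CPM in knockdown libraries (log2 fold change −1.23), whereas its partner Snrpa1 had 133 ± 55.5 and 85.9 ± 3.97 CPM and did not pass. The GC-corrected value of Snrpb2 was 0.86 and that of Sf3a2 was 0.07, and neither passed.

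U2AF is a pair of proteins, the larger of which binds the polypyrimidine tract and the smaller the AG at the intron's end. U2af2, the larger subunit, had 412, 329 and 438 CPM in control and 563, 553 and 526 CPM in knockdown libraries (log2 fold change 0.48, SE 0.14, adjusted p = 0.0288). Every knockdown library was above every control, and the GC-corrected value was −0.002 (adjusted p = 0.993). U2af1, the smaller subunit, had 269, 429 and 286 CPM in control and 270.0, 272 and 275 CPM in the knockdown. Control replicate 2 alone was high and the others lay together, so the groups overlapped (log2 fold change −0.27, SE 0.19, adjusted p = 0.285). The GC-corrected value of U2af1, −0.66, passed as lower (adjusted p = 0.0437). U2af1l4, a paralog of U2af1 with which it could share reads, rose from 62.4 ± 5.92 to 81.0 ± 0.613 CPM, and its GC-corrected value was 0.01.

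**Figure D2:**
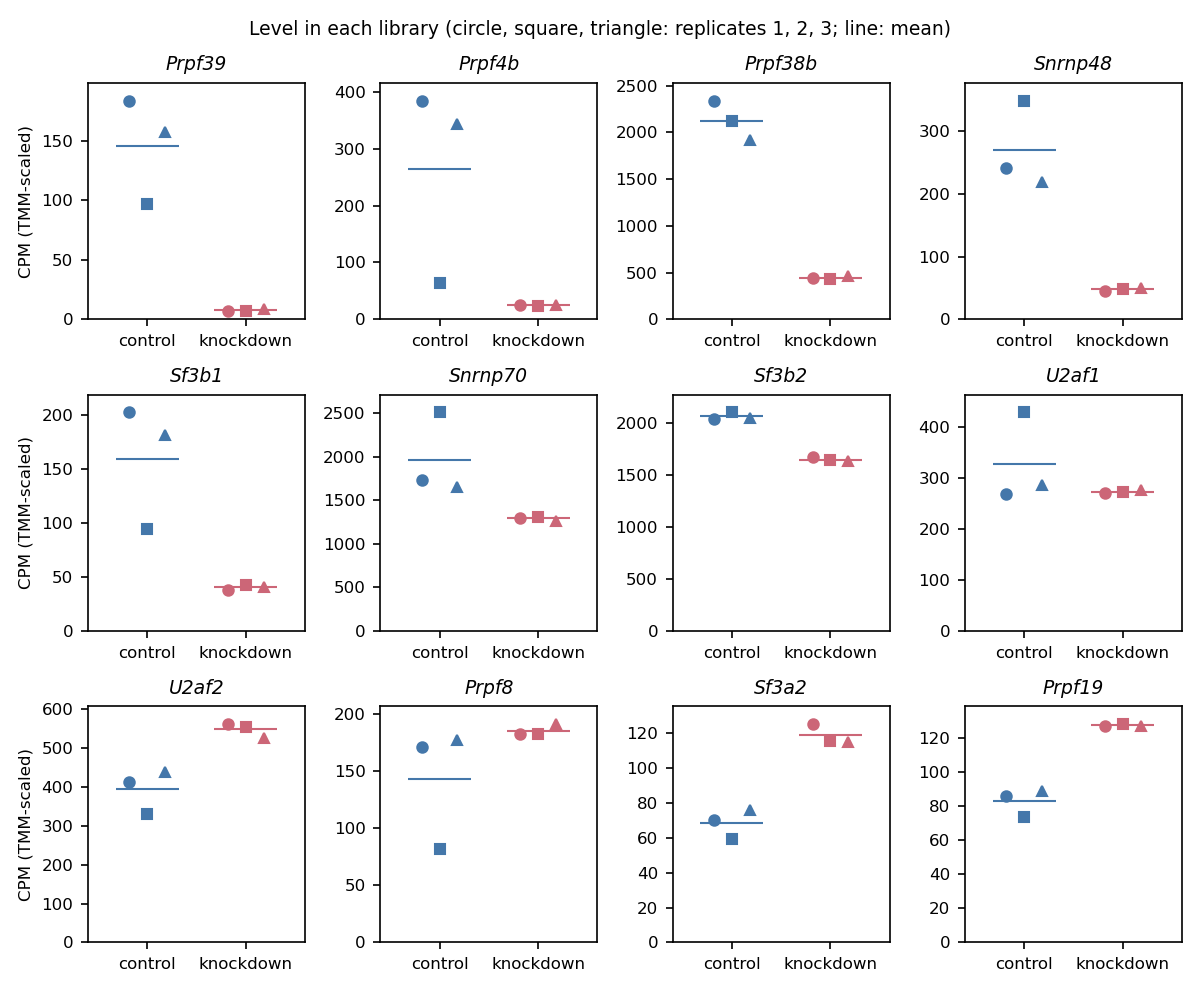
Normalised level (CPM, scaled by TMM, each axis starting at 0) of 12 of the genes in each of the 6 libraries, with circles, squares and triangles for replicates 1, 2 and 3 and a line at the mean of the group. Control replicate 2 is the lowest control for Prpf39, Prpf4b, Sf3b1, U2af2, Prpf8, Sf3a2 and Prpf19 and the highest for Snrnp48, Snrnp70, Sf3b2 and U2af1, while the knockdown libraries lie close together for every gene shown.

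Of the 8 Sm genes, whose products form the ring around U1, U2, U4 and U5 RNA, 3 fell, none rose and 5 did not pass (edgeR, 3 at an unadjusted p under 0.05, and no rise by DESeq2 or limma-voom, by which 23.3% and 35.8% of all tested genes rose). By edgeR 26.8% of all tested genes fell and 21.1% rose. With the GC trend removed 1 Sm gene passed as lower and 1 as higher, against 15.2% and 16.3% of all genes. Without control replicate 2 as well, 1 passed as lower and 5 as higher, against 27.9% and 33.7%. Snrpe had 37.1, 45.2 and 30.3 CPM in control and 16.7, 16.7 and 18.6 CPM in knockdown libraries (log2 fold change −1.12, SE 0.17, adjusted p = 0.00213). Snrpd1 had 265, 565 and 289.8 CPM in control and 190.3, 189.7 and 194 CPM in knockdown libraries (log2 fold change −0.97, SE 0.29, adjusted p = 0.0289). Snrpg had 13.3, 17.2 and 10.8 CPM in control and 7.02, 7.66 and 8.40 CPM in knockdown libraries (log2 fold change −0.84, SE 0.20, adjusted p = 0.0113). None of these 3 genes overlapped between groups, and control replicate 2 was the highest library for each of them. For Snrpd1 that library set much of the size, since the log2 fold change was −0.54 without it. Upper-quartile factors ended the calls of Snrpd1 and Snrpg, at −0.81 and −0.67. That of Snrpd1 was also lost with library totals alone, with each FPKM alternative and without any one knockdown library. Snrpg did not pass without knockdown replicate 1 or 2, or with log2(FPKM + 1) without a filter.

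The other Sm genes overlapped between groups. Snrpb, which encodes the SmB proteins, had 177, 206 and 169.7 CPM in control and 165, 173 and 193 CPM in knockdown libraries (log2 fold change −0.05, SE 0.13, adjusted p = 0.757). Snrpn, whose product SmN is nearly identical to SmB and is made mainly in brain, had 1.34, 1.55 and 1.72 CPM in control and 2.27, 2.01 and 1.06 CPM in knockdown libraries (log2 fold change 0.22, SE 0.32, adjusted p = 0.601). It rested on 33 to 73 counts a library. With the GC trend removed and without control replicate 2 it passed as higher, at 1.03 (adjusted p = 0.0106). Snrpf, Snrpd3 and Snrpd2 had log2 fold changes of −0.34, −0.26 and −0.20. The GC-corrected values of Snrpe, Snrpd1 and Snrpg were 0.23, 0.20 and −0.33, none of which passed, while Snrpf passed as higher at 1.26 (adjusted p = 0.0353) and Snrpb as lower at −0.63 (adjusted p = 0.0159). Several small Sm and LSm genes have processed copies elsewhere in the genome. How the authors' counting treated reads that match more than 1 gene was not given in the sources used here, so these levels are uncertain to that extent.

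Of the 8 genes of the LSm rings, 2 fell (Lsm5 and Lsm3), none rose and 6 did not pass (edgeR, 4 at an unadjusted p under 0.05). By that test 26.8% of all tested genes fell and 21.1% rose. No member of the rings rose by DESeq2, and 2 did by limma-voom. With the GC trend removed none passed as lower and 1 as higher, against 15.2% and 16.3% of all genes. Without control replicate 2 as well, 3 passed as lower and 4 as higher, against 27.9% and 33.7%. The ring with Lsm8 holds the 3′ end of U6 RNA in the nucleus, and the ring with Lsm1 in its place acts in mRNA decay in the cytoplasm. Lsm8 had 76.9, 73.0 and 77.4 CPM in control and 61.9, 60.7 and 61.3 CPM in the knockdown, a tight separation that narrowly missed the threshold (log2 fold change −0.31, SE 0.11, adjusted p = 0.054). Lsm1 had 34.5, 36.7 and 38.6 CPM in control and 37.0, 37.0 and 35.0 CPM in the knockdown, with overlap (log2 fold change −0.01, SE 0.12, adjusted p = 0.947). A difference between Lsm8 and Lsm1 was not tested. Without control replicate 2, and also by DESeq2, Lsm8 passed as lower, at −0.33 and −0.31.

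Of the subunits that both rings share, Lsm5 had 19.1, 25.6 and 13 CPM in control and 7.46, 8.95 and 7.34 CPM in knockdown libraries (log2 fold change −1.28, SE 0.25, adjusted p = 0.00579). All knockdown libraries were below all controls, yet the GC-corrected value of Lsm5 passed in the other direction, at 1.44 (adjusted p = 0.0204). At 36.6% GC its transcript had the lowest GC content of the 57. Lsm2 had 11.7, 18.05 and 12.7 CPM in control and 20.1, 19.0 and 16.6 CPM in the knockdown, overlapping through control replicate 2 (log2 fold change 0.40, SE 0.20, adjusted p = 0.134, and 0.61 without that library, adjusted p = 0.000105). Lsm3 fell from 151 ± 22.4 CPM in control to 88.6 ± 1.19 CPM in knockdown libraries (log2 fold change −0.76). Lsm6, Lsm7 and Lsm4 had log2 fold changes of −0.51, −0.50 and 0.02.

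**Figure D3:**
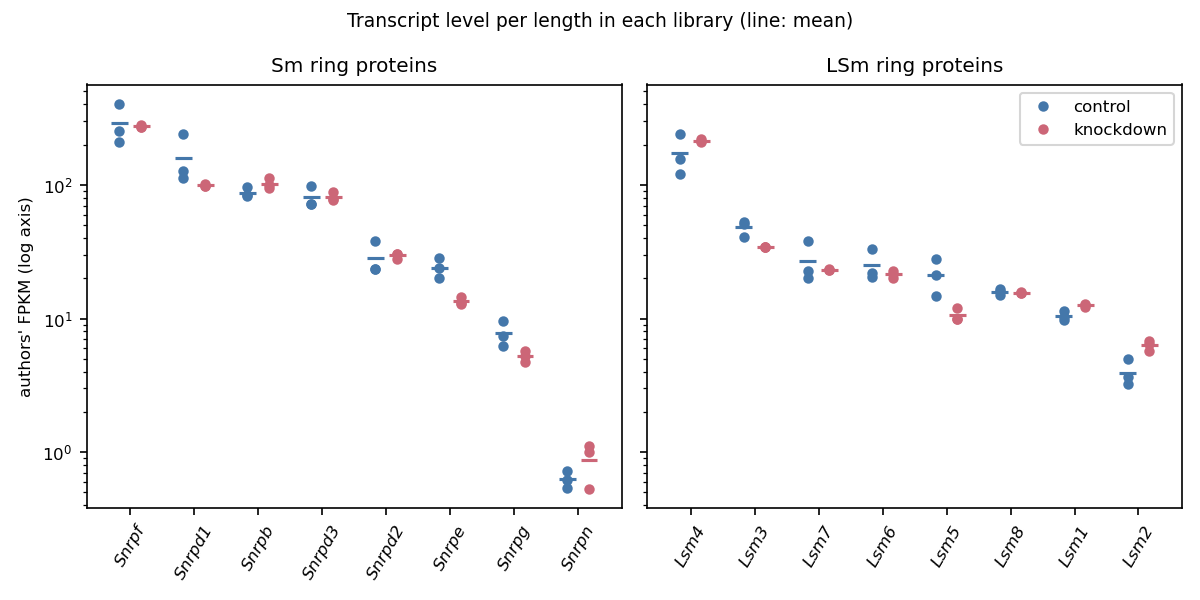
Transcript level per length (the authors' FPKM, log axis) of the Sm genes (left) and the LSm ring genes (right) in each control and knockdown library, with a line at the mean and genes ordered by the control mean. Within each ring the levels span from 288 to 0.627 FPKM (Snrpf to Snrpn) and from 173 to 3.94 FPKM (Lsm4 to Lsm2) in control, and in the knockdown Snrpd1 and Snrpb exchange places and Lsm5 goes from the fifth place to the seventh.

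None of the 5 LSm genes outside these rings passed the test, with 1 of them at an unadjusted p under 0.05 and 1, the same count, called by DESeq2. By edgeR 26.8% of all tested genes fell and 21.1% rose. With the GC trend removed and without control replicate 2, 4 of the 5 passed as higher and none as lower, against 33.7% and 27.9% of all genes. Lsm10 and Lsm11 encode the LSm proteins of the U7 snRNP, which trims histone mRNA. Lsm10 had 1.14, 3.38 and 1.41 CPM in control and 3.61, 3.24 and 3.16 CPM in the knockdown, and the high control replicate 2 made the groups overlap (log2 fold change 0.76, SE 0.40, adjusted p = 0.155). It rested on 34 to 116 counts a library, and without that library it passed as higher, at 1.38 (adjusted p = 5.12e-05). Lsm12 had 53.3, 57.3 and 46.2 CPM in control and 43.2, 42.5 and 44.3 CPM in the knockdown, without overlap (log2 fold change −0.27, SE 0.13, adjusted p = 0.125). Lsm11 and Lsm14b had log2 fold changes of 0.32 and 0.40, and Lsm14a, which like Lsm14b acts in mRNA storage and decay granules, had −0.25.

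In the U4/U6.U5 tri-snRNP, 2 of 8 genes fell (Prpf3 and Snrnp27) and 3 rose (Prpf6, Prpf31 and Snrnp40). Over all tested genes the shares were 26.8% and 21.1%. Prpf3, a U4/U6 protein, had 277, 299 and 259 CPM in control and 158, 153 and 169.7 CPM in knockdown libraries (log2 fold change −0.80, SE 0.12, adjusted p = 0.00169). Its U4/U6 partner Prpf31, which bridges to U5, had 143, 129 and 132 CPM in control and 171, 177 and 181 CPM in knockdown libraries (log2 fold change 0.39, SE 0.11, adjusted p = 0.025). Prpf6, the main contact between U4/U6 and U5, had 339.8, 389.7 and 366 CPM in control and 490.2, 501 and 490.3 CPM in knockdown libraries (log2 fold change 0.44, SE 0.12, adjusted p = 0.0183). The groups of all 3 genes were apart, Prpf3 downward and the others upward. Mutations of PRPF3, PRPF31, PRPF6 and PRPF8 in humans cause retinitis pigmentosa.

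The U5 proteins Prpf8 and Snrnp200, at the catalytic centre, did not pass. Prpf8, the scaffold of that centre, had 171, 81.5 and 177 CPM in control and 182, 182 and 191 CPM in knockdown libraries (log2 fold change 0.37, SE 0.28, adjusted p = 0.309). Controls 1 and 3 lay just under the knockdown libraries, and without control replicate 2 the log2 fold change was 0.09. Snrnp200, the helicase that unwinds U4 from U6, had 266, 213 and 265 CPM in control and 270.3, 259 and 270.0 CPM in the knockdown, with overlap (log2 fold change 0.10, SE 0.13, adjusted p = 0.555). Snrnp40, a U5 protein of low level, had 13.5, 15.5 and 13.3 CPM in control and 19.9, 20.2 and 18.6 CPM in knockdown libraries (log2 fold change 0.47, SE 0.13, adjusted p = 0.0206). Prpf4 had 29.0 ± 5.04 and 29.0 ± 1.04 CPM, and Snrnp27 fell from 468 ± 72.5 to 343 ± 1.55 CPM. The GC-corrected values of Prpf3, Snrnp27, Prpf31, Prpf6 and Snrnp40 kept their sign (−0.46, −0.12, 0.29, 0.22 and 0.32) without passing, and Prpf4 passed as higher at 0.59 (adjusted p = 0.00986).

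The 8 PRP factors that join at other steps held the deepest fall: 5 fell, 2 rose and 1, Prpf38a, did not pass. Among all tested genes 26.8% fell and 21.1% rose, and a difference of this small group from that share was not tested. Prpf39 (ENSMUSG00000035597.20, chromosome 12), which in yeast is part of the U1 snRNP and in mammals associates with it, had 184, 96.5 and 157 CPM in control and 6.71, 7.21 and 8.57 CPM in the knockdown. Every control library was far above every knockdown library (log2 fold change −4.28, SE 0.28, adjusted p = 5.8e-05). The GC-corrected value of Prpf39 was −1.54 and passed (adjusted p = 0.000912). Prpf40b, a WW-domain protein, had 119.8, 117 and 133 CPM in control and 168, 165 and 165 CPM in the knockdown and rose without overlap (log2 fold change 0.43, SE 0.11, adjusted p = 0.0192). Its GC-corrected value of −0.17 turned the direction and did not pass (adjusted p = 0.277).

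Prpf4b (ENSMUSG00000021413.10, chromosome 13), a nuclear kinase that phosphorylates tri-snRNP proteins, had 385, 63.3 and 343 CPM in control and 24.9, 24.3 and 25.2 CPM in the knockdown. Control replicate 2 was 5.74 times below the mean of the other controls, the widest gap of the 57 genes, and still above all knockdown libraries (log2 fold change −3.41, SE 0.62, adjusted p = 0.00399). Without that library the value was −3.87, with all libraries and GC-corrected it was −1.50 and did not pass (adjusted p = 0.0598). Prpf38b, a homologue of the B-complex protein encoded by Prpf38a, was among the most abundant of the 57 genes per length (269.7 FPKM in control) and fell from 2127 ± 211 CPM in control to 448 ± 19.1 CPM in knockdown libraries (log2 fold change −2.25). At −1.83 it had the largest GC-corrected fall of the 57 genes, a value that rested on the transcript chosen (given below), whereas Prpf38a had a log2 fold change of −0.44 and a GC-corrected value of 0.38, and passed in neither fit. Prpf18, a factor of the second catalytic step, fell from 41.9 ± 6.73 to 25.1 ± 1.81 CPM, with a GC-corrected value of 0.23. Prpf19, the ubiquitin ligase and scaffold of the complex named after it, had 86.3, 73.8 and 88.9 CPM in control and 127, 129 and 127 CPM in the knockdown. It rose without overlap (log2 fold change 0.62, SE 0.12, adjusted p = 0.0056), with nearly the same GC-corrected value, 0.57 (adjusted p = 0.00776).

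Of the 3 proteins particular to U11/U12, 1 fell and 1 rose, against 26.8% and 21.1% of all tested genes. Snrnp48 (ENSMUSG00000021431.16, chromosome 13), which binds near the 5′ splice site of minor introns, had 242, 349 and 219 CPM in control and 45.2, 48.1 and 50.04 CPM in knockdown libraries (log2 fold change −2.50, SE 0.20, adjusted p = 0.000131). Snrnp25 had 9.74, 16.3 and 12.1 CPM in control and 19.9, 20.01 and 19.4 CPM in knockdown libraries (log2 fold change 0.64, SE 0.20, adjusted p = 0.0334). Neither gene overlapped between groups, in opposite directions. Snrnp35, the counterpart of Snrnp70 in U11, lay at 27.7 ± 7.33 and 26.0 ± 1.17 CPM. The GC-corrected values of Snrnp48 and Snrnp25 were −0.51 and 0.20, and neither passed (adjusted p = 0.214 and 0.462).

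The size of these differences went with the base composition of the transcripts. Across the 57 genes, the log2 fold change correlated with the GC content of the transcript used for each gene at a Spearman rho of 0.69 and a Pearson r of 0.70, against 0.70 and 0.68 across 13043 tested genes. Genes are not independent replicates, and all points share the same 6 libraries. The 17 genes that fell had a median GC content of 43.1%, the 29 that did not pass 50% and the 11 that rose 55.2%. Below 42.5% GC, 7 of 8 genes fell (all but Snrpf), and 85.4% of all tested genes in that range fell. Between 42.5 and 47.5% GC 6 of 15 fell and none rose, against 50.5% and 3.16% of all tested genes in that range. Between 47.5 and 52.5% 2 of 16 fell and 4 rose, against 16.7% and 16.0% of all tested genes there. From 52.5% upward 2 of 18 fell and 7 rose. These last 2 falls, of Snrnp70 and Sf3b2, are of genes whose neighbours in GC content mostly rose or did not pass: of all tested genes from 52.5% upward 41.3% rose and 3.10% fell.

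The coding sequences show the contrast directly. Below, the middle 120 bases of the coding sequence (GENCODE M21 transcripts, build GRCm38, counted from the start codon) are given for the gene that fell most and for 1 of those that rose, with G and C in capitals.
Prpf39 coding sequence, bases 937 to 1056: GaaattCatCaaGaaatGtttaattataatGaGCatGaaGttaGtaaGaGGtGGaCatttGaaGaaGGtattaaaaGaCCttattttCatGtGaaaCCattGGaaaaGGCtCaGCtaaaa
Snrnp25 coding sequence, bases 124 to 243: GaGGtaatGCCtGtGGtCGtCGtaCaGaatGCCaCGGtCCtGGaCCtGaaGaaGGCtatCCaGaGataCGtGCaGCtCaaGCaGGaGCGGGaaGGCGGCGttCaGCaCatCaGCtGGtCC
Of these 120 bases, 37 are G or C in Prpf39, against 70 in Snrnp25. Over the whole coding sequence the GC content was 38.3% in Prpf39 and 53.7% in Snrnp25.

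**Figure D4:**
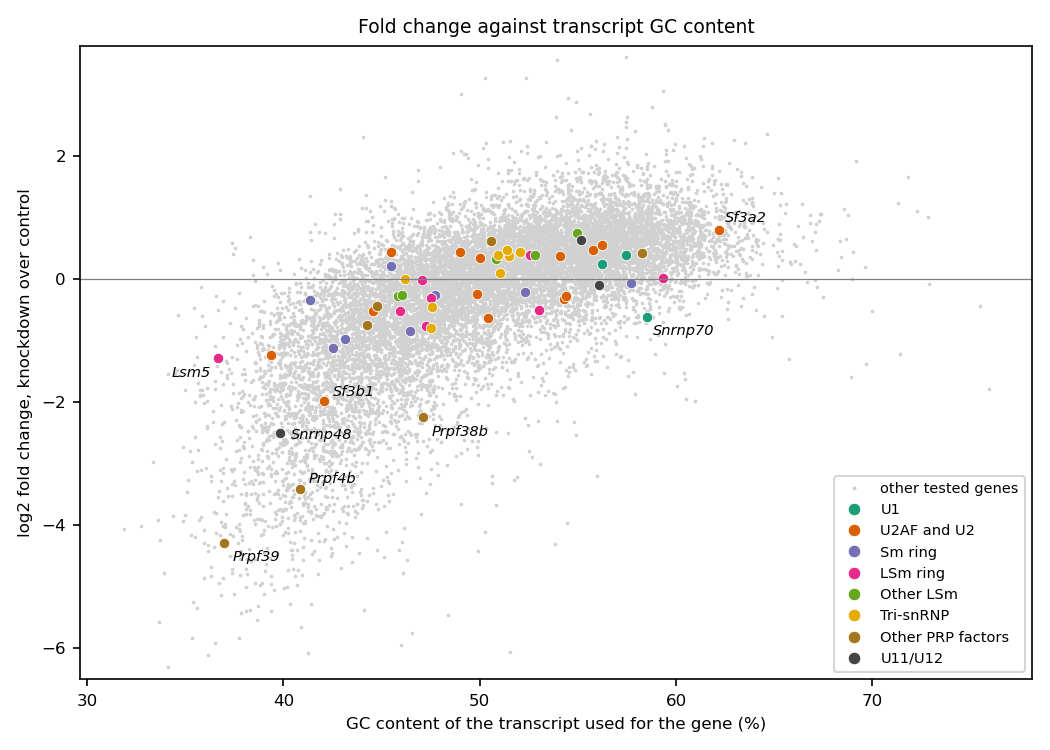
Log2 fold change, knockdown over control, against the GC content of the transcript used for each gene, with other tested genes as grey points and 56 of the core spliceosome genes coloured by role. The coloured points follow the grey cloud from lower left to upper right, with Prpf39 at 37.0% GC and −4.28 and Sf3a2 at 62.2% GC and 0.79; Prpf38b (47.1% GC) and Snrnp70 (58.5% GC) lie low for their GC content.

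In the GC-corrected fit the median log2 fold change of the 57 genes was 0.05 and the Spearman correlation with GC content was −0.28. Besides the 6 calls that were kept, Lsm5 passed in the opposite direction, U2af1 and Snrpb passed as lower, and Sf3b3, Sf3b5, Snrpf and Prpf4 passed as higher. The correction uses 1 transcript per gene, the one with the longest coding part, which need not be the one these cells make. With the longest transcript of each gene in its place, a setting chosen after the data were seen, 10 genes passed as lower and 8 as higher, against 15.6% and 17% of all genes tested. Prpf39 then had a log2 fold change of −2.02, and Prpf4b (−1.72, adjusted p = 0.0411) and Snrnp48 (−0.94, adjusted p = 0.0409) passed as lower. Prpf38b did not pass there, at −0.26 (adjusted p = 0.249), since its longest transcript has 38.8% GC against 47.1% in the other. Lsm8 had a value of 1.53 in place of 0.05, with 39.7% against 47.5% GC. In the GC-corrected fit with the longest coding transcripts but without control replicate 2, 17 genes passed as lower and 26 as higher, against 27.9% and 33.7% of all tested genes, and 7 of the 28 calls then stood in the opposite direction, those of Snrpb2, U2af2, Snrpe, Snrpd1, Lsm5, Prpf18 and Prpf40b.

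Transcript levels per length were compared between genes with the authors' FPKM values (fragments scaled by gene length and library total). That scaling takes no account of GC content, whose part in the order of levels was not tested. The gene lengths implied by these values, from the counts and library totals of the control libraries, were longer than the transcripts used here for GC content, by 1.04 times (Lsm11) to 8.68 times (Lsm8) with a median of 1.66, so the order of levels depends on the length chosen. By FPKM, genes whose proteins occupy 1 ring or complex differed widely in transcript level. Among the Sm genes the control mean was 288 ± 103 FPKM for Snrpf, 159.8 ± 68.8 for Snrpd1, 87.6 ± 7.53 for Snrpb, 80.5 ± 14.9 for Snrpd3, 28.2 ± 8.48 for Snrpd2, 24.1 ± 4.33 for Snrpe and 7.73 ± 1.65 for Snrpg (SD, n = 3). Snrpf and Snrpd1, Snrpb and Snrpd3, and Snrpd2 and Snrpe overlapped between control libraries, while the other neighbours in this order did not. In the LSm rings Lsm4 led at 173 ± 62.1 FPKM and Lsm2 was lowest at 3.94 ± 0.902 FPKM, and Lsm7, Lsm6, Lsm5 and Lsm8, in this order, each overlapped the next. In the U2 group Sf3b2 was highest at 267 ± 4.88 FPKM, and Sf3b1, its partner in the same complex, was at 12.4 ± 4.56 FPKM in control and 3.82 ± 0.247 FPKM in the knockdown, the lowest of the 14 genes there. In the tri-snRNP the levels ran from 224 ± 30.1 FPKM for Snrnp27 to 3.12 ± 0.218 FPKM for Snrnp40. Among the PRP factors Prpf38b was highest in both groups (269.7 ± 23.1 and 68.9 ± 3.21 FPKM). FPKM values lack the TMM scaling, so their ratios between groups differ from the fold changes above. By CPM per kilobase of the transcript used here, Snrpd1 (435) was above Snrpf (327) in control, Lsm8 (151) took the third place in the LSm rings in place of the sixth, Lsm1 (13.8) in place of Lsm2 (16.2) was the lowest there, and Prpf4 (5.55) in place of Snrnp40 (8.92) was the lowest of the tri-snRNP. Lsm4, Sf3b2, Snrnp27 and Prpf38b were the highest of their groups in control by either length, and Sf3b1 the lowest of the U2 group in the knockdown.

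The control libraries varied far more than the knockdown libraries. The median coefficient of variation of the 57 genes was 19.98% in control and 3.72% in the knockdown, and it was larger in control for 55 of 57 genes. Control replicate 2 was the highest control for 35 genes and the lowest for 17, and lay more than 1.5 times from the mean of controls 1 and 3 for 22 genes. Control replicates 1 and 3 were that far apart for no gene. The genes for which control replicate 2 was lowest by the widest margin were Prpf4b, Prpf8 (2.13 times), Sf3b1 (2.03 times) and Lsm14a (1.99 times), and those for which it was highest were Lsm10 (2.64 times), Snrpd1 (2.04 times) and Snrpa1 (1.95 times). Across the 57 genes the deviation of control replicate 2 had a Spearman correlation of −0.67 with the length of the transcript used and 0.06 with its GC content, so longer transcripts were lower in that library. The ratio of control replicates 1 and 3 had a correlation of 0.16 with length. The part of transcript length in the results was not tested beyond the fit that removes it together with GC content, in which 11 genes passed as lower and 12 as higher, against 18% and 21.5% of all genes tested.

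Promoter sequences from RefSeq (GRCm38.p6, 250 bases before to 50 after the start) were at hand for 46 of the 57 genes; those of Sf3b5, U2af2, Sf3b4, Snrpd1, Snrpb, Lsm1, Lsm4, Lsm12, Snrnp40 and Prpf18 were among the ones not used here. The letters CCGGAAG, 1 form of the site that transcription factors of the ETS family recognise, were found on either strand in 17 of the 46 (37.0%). Other forms of that site were not searched for. The share was 20.8% of the tested genes with a promoter and 9.93% of all 27025 genes of the promoter set, tested here or not. CCAAT was found in 41.3% of the 46 and 43.5% of the tested genes, and TATAAA in 8.70% and 8.43%. The genes with CCGGAAG did not go 1 way: 8 of the 17 fell and 3 rose, and of the 29 without it 6 fell and 5 rose. Among all tested genes 26.8% fell and 21.1% rose. These calls are those before the GC correction, and a link between the letters and the direction was not tested. A match of letters is a description of this window and not a bound site. The 120 bases that hold the match are shown for 2 genes that fell and 2 that rose, with the match in capitals.
Prpf4b promoter, chr13:34875409-34875528, + strand: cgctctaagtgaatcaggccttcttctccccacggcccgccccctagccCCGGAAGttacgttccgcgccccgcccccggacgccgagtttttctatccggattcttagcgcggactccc
Prpf3 promoter, chr3:95855754-95855873, - strand: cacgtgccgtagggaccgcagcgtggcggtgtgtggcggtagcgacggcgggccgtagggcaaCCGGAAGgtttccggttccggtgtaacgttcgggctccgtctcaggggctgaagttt
Sf3a2 promoter, chr10:80798615-80798734, + strand: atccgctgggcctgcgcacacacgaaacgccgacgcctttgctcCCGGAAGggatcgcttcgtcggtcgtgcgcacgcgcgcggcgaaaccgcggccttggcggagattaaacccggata
Prpf19 promoter, chr19:10895111-10895230, + strand: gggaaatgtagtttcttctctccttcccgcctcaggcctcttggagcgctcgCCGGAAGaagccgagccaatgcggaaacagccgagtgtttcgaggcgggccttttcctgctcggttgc

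Other proteins of the spliceosome, from a list of 60 genes outside the 57, gave 21 falls and 4 rises, with a median log2 fold change of −0.18. The shares over all tested genes were 26.8% for falls and 21.1% for rises. Cwc22, which loads the exon junction complex onto spliced RNA, fell from 385 ± 23.8 CPM in control to 56.1 ± 1.04 CPM in knockdown libraries (log2 fold change −2.78, SE 0.12, adjusted p = 2.05e-05). Luc7l3, a homologue of a yeast U1 snRNP protein, fell from 288 ± 36.3 CPM in control to 24.9 ± 3.25 CPM in knockdown libraries (log2 fold change −3.54, SE 0.17, adjusted p = 2.73e-05). Ctnnbl1, a protein of the Prpf19 complex, and Pdcd7, a U11/U12 protein, rose by log2 fold changes of 0.59 and 0.57, but their GC-corrected values were 0.17 and −0.0052 and did not pass (adjusted p = 0.304 and 0.982). GC-corrected, 14 genes of that list passed as lower and 7 as higher, against 15.2% and 16.3% of all genes tested in that fit. Cwc22 and Luc7l3 remained among the lower at −1.89 and −1.83.

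Of 22 genes for the assembly and nuclear import of snRNPs 21 were tested, of which 8 fell and 2 rose. All tested genes gave 26.8% falls and 21.1% rises. Tgs1, which adds the trimethyl cap to small nuclear RNAs, fell from 49.96 ± 13.9 CPM in control to 9.17 ± 0.162 CPM in knockdown libraries (log2 fold change −2.45, SE 0.23, adjusted p = 0.000247). Larp7, which takes part in U6 modification and binds 7SK RNA, fell from 187 ± 24.1 CPM in control to 65.2 ± 5.45 CPM in knockdown libraries (log2 fold change −1.52, SE 0.14, adjusted p = 0.000256). Mepce, which caps 7SK RNA, rose from 22.5 ± 5.56 to 46.7 ± 4.16 CPM, and Prmt5, which methylates the tails of Sm proteins before the ring forms, from 69.4 ± 8.36 to 103 ± 3.25 CPM. GC-corrected, 5 genes of the list passed as lower and none of the 21 as higher in the edgeR fit, where 15.2% and 16.3% of all tested genes did. Tgs1 and Larp7 had GC-corrected values of −0.88 and −0.98.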

How the data were processed

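Messenger RNA of 6 libraries (3 control, 3 RIOK3 knockdown) was sequenced in paired-end reads of 150 bases, per the labels. The authors deposited raw counts per gene (22030 genes) and FPKM values (21879 genes), and the submitters' processing notes name HISAT2, MultiQC and the build GRCm39 without their roles. The counting tool, strand setting and annotation were not given in the sources used here, so overlapping, antisense and near-identical genes could share counts.

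Counts were tested in edgeR 4.0.16 (R 4.3.3) after filterByExpr (13067 genes kept) and TMM scaling, with the robust quasi-likelihood test, 2 groups, no covariates, two-sided, Benjamini-Hochberg over all tested genes and a threshold of 0.05. Log2 fold changes are knockdown over control. The SE is the size of the fold change divided by the root of the F statistic. The fit was tested on simulated data. FPKM served for levels between genes and for alternatives in limma 3.58.1. Transcript GC content and length came from GENCODE M21 (GRCm38, an earlier build), for 13043 tested genes (99.8%). The GC correction removed a loess trend (span 0.3, degree 1) of each library and entered as an offset. DESeq2 1.42.0 was another alternative.

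The members, roles and gene lists were chosen with earlier results of these data known. Full values were computed for 32 members, set by role and by the highest and lowest fold change in each role, and for the 2 genes with the smallest p in each direction of the 2 outside lists. Prpf38b and Sf3b2 were added to the plot of levels by library, and the members with the widest deviations of control replicate 2 were named, after their values were seen. Single results of 1 member and 1 marker, and 1 sequence, are not reported here, but the member stays in all counts.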

Additional observations from a re-analysis of the deposited data

How the results depend on the processing

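Over 22 alternatives, 488 of 700 recomputed log2 fold changes of the 32 genes followed singly kept their direction and their side of the threshold. The 17 falls among the 57 genes became 7 with the GC trend removed, 11 with GC and length, 6 with GC and the replicate block, 10 with the GC trend of the longest transcript (chosen after the data were seen) and 11 with log2(FPKM + 1) without a filter. The 11 rises became 6, 6 with GC and the replicate block, 26 with GC and without control replicate 2, 17 with library totals alone, 19 with limma-voom, 19 with log2(FPKM + 1), 19 with log2(FPKM + 0.1) and 17 with log2(FPKM + 1) without a filter. In the FPKM fits, in that order, 33.9%, 33.9% and 29.8% of the core genes rose, against 40.5%, 39.8% and 17.96% of all genes. Without a filter 19.3% of the core genes fell, also a larger share than among all genes. With GC and the replicate block 10.5% of the core genes fell and 10.5% rose, against 11.8% and 11.98% of all genes. Leaving out 1 library at a time gave 12 to 25 falls, 3 to 19 rises and medians from −0.27 to −0.03, with the most calls without control replicate 2 and the fewest rises without any one knockdown library. Of all tested genes 20.1% to 36.5% fell and 12.3% to 35.1% rose when 1 library was left out. The median of −0.25 became 0.05, 0.08, 0.08, 0.11 and 0.08 in the 5 composition fits (GC, GC and length, GC with the replicate block, longest transcript, GC without control replicate 2), 0.0037 with library totals alone, −0.04 with upper-quartile factors, −0.06 with limma-voom and 0.06, 0.06 and 0.08 with FPKM, where the median of all genes was 0.28, 0.35 and 0.01.

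Of these genes, those that turned direction and passed before or after did so in composition fits only, listed as GC, GC and length, GC without control replicate 2, GC with the replicate block and longest transcript. Lsm5 had 1.44, 1.02, 1.92, 1.54 and 1.51, Prpf40b −0.17, −0.25, −0.22, −0.17 and −0.14, Snrpd1 0.20, 0.22, 0.82, 0.37 and 0.06, and Snrpe 0.23, 0.21, 0.56, 0.29 and 0.19. Snrpa had −0.17, −0.06, −0.11 and −0.17 in the first 4, and U2af2 −0.002, −0.00087 and −0.12 in the first 3. Lsm1 had 0.38 with GC and length and 0.51 with GC and without control replicate 2, where Lsm12 had 0.54 and Sf3a2 −0.06. Lsm8 had 1.53 with the longest transcript. Lsm1 and Lsm12 also changed sign, without passing, in other fits, at 0.24 and 0.01 with log2(FPKM + 1). The cause was not tested.

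The replicate numbers only name the libraries: deviations of libraries with the same number correlated at −0.08, 0.04 and 0.05. A paired fit with the replicate block gave 15 falls and 4 rises, against 24.7% and 18.3% of all tested genes. Snrpn and Lsm10 rested on the fewest counts, 33 to 73 and 34 to 116 a library; the part of depth in their results was not tested.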
